A study of Mus musculus with 12 samples.

Results

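The comparison is that of batch 1, one of 2 batches named in the labels: colonocytes from 3 germfree (GF) and 3 conventionally raised (CONV) mouse preparations, which are 6 of the 12 arrays of the study and the arrays numbered 1 to 3 in each group. All preparations are isolated epithelial cells of the colon of C57BL/6 mice. GF mice lived in isolators without any microbe, and CONV mice carried an ordinary microbiota. The labels call the samples biological replicates and give no age, sex, number of animals or time of day, so the p-values measure only the spread between these preparations, which may be partly technical. Biotin-labelled RNA was hybridised to Illumina bead arrays, and each row of the table is a gene. Of 15154 rows, 7348 had a detection p below 0.05 on at least 3 of the 6 arrays, and they stood for 7337 genes, which were all tested. A level is a log2 intensity after background correction and quantile normalization of these 6 arrays alone, a change is the GF mean minus the CONV mean on that scale, and a gene is said to rise or fall where limma's two-sided test gave a Benjamini-Hochberg adjusted p below 0.05.

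Colonocytes line the colon, take up water, salt and the short-chain fatty acids that bacteria make by fermentation, and burn butyrate as a main fuel. They are renewed from stem cells at the crypt base, together with mucus-making goblet cells and hormone-making enteroendocrine cells. Bacteria at their surface are sensed by innate receptors, and interferons, antimicrobial proteins and antigen-presenting molecules are parts of the answer, so the germfree colon is used to ask which of these programmes need a microbiota.

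The first principal component held 82.0% of the variance and separated the 3 GF from the 3 CONV arrays, and the second, with 9.77%, separated CONV1 from the other 5. On array CONV1 transcripts made in the liver were high. Mup2, a major urinary protein made by hepatocytes, had a level of 13.76 on CONV1 and of 4.83, 4.76, 4.71, 4.65 and 4.87 on the other arrays. Of 28 liver genes of the table, listed after these values were seen, 21 were detected on CONV1 and 7 to 10 on each other array, 17 were at least 1 log2 unit above all 5 other arrays, and the summed signal was 28987 against 1747 to 2580. Albumin and 6 others of the 28 were detected on no array. A smaller departure of the same kind was seen for lens proteins, also listed after their values were seen: their summed signal was 1512 on GF1 and 1475 on GF2, against 612 on GF3 and 428 to 580 in CONV. The source of either signal was not tested. CONV1 had 68 of 8322 rows more than 1 log2 unit above both other CONV arrays, and GF3 had 7 rows that far below both other GF arrays, while no other array had more than 1 row in either direction.

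**Figure D1:**
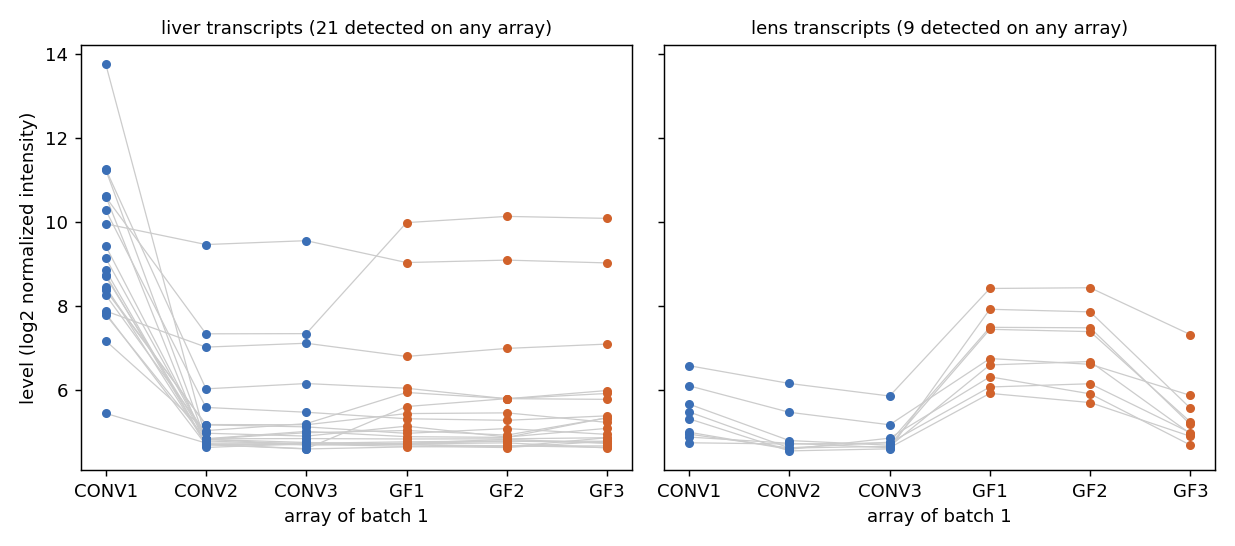
Levels (log2 normalized intensity) of liver transcripts (left) and lens transcripts (right) on each array of batch 1, one grey line per gene detected on at least 1 array, with CONV arrays in blue and GF arrays in orange. Liver transcripts such as Mup2 are high on CONV1 alone, and several lens crystallins are higher on GF1 and GF2 than on GF3.

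Some results rested on a single array. Apoa1, the main protein of high-density lipoprotein, had levels of 10.60, 7.34 and 7.34 in CONV and 9.98, 10.13 and 10.09 in GF, and its change of 1.64 ± 0.77 (SE; limma adjusted p = 0.112) did not pass the test over 6 arrays. Without CONV1 the change was 2.73 (adjusted p = 4.21e-07), so the call depended on that array. Apoc3, another secreted apolipoprotein, moved from -0.33 (adjusted p = 0.809) to 1.04 (adjusted p = 4.44e-05) without CONV1. The lens crystallin Crygb had levels of 5.32, 4.56 and 4.61 in CONV and 7.92, 7.86 and 5.57 in GF, and its change was 2.29 over all arrays and 3.08 without GF3. Rbm3, a cold-inducible RNA-binding protein, had levels of 11.08, 5.78 and 11.22 in CONV and 5.23, 5.43 and 5.16 in GF, so that CONV2 lay close to the GF arrays. Its change of -4.09 ± 1.26 (SE; limma adjusted p = 0.0277) became -5.86 (adjusted p = 1.32e-07) without CONV2, and its call was lost without CONV1, CONV3, GF1, GF2 or GF3.

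The preparations carried colon epithelial transcripts. The summed signal of the colonocyte markers was 46676 to 48767 in CONV and 47443 to 50565 in GF, and of 9 markers in the table only Krt20 was detected on no array. The goblet cell markers summed to 24337 to 26113 in CONV and 36574 to 38440 in GF, and the enteroendocrine markers to 3446 to 4111 in CONV and 7072 to 7242 in GF, so both lay higher in GF without overlap. Markers of other cells were dim. Of 7 macrophage and dendritic cell markers measured, 3 were detected on at least 3 arrays, C1qb, Csf1r, Itgam and Lyz2 were detected on none, and the list summed to 788 to 886 in CONV and 673 to 691 in GF. Cd68, a lysosomal protein of macrophages, rose by 1.75 ± 0.12. T cell markers summed to 243 to 269 in CONV and 336 to 358 in GF and intraepithelial lymphocyte markers to 228 to 285 in CONV and 418 to 436 in GF, without overlap. Of 2 T cell markers tested, the receptor subunit Cd3g rose by 1.00 ± 0.057 and the other by 0.227. Of 4 intraepithelial lymphocyte markers tested, 2 rose and 2 did not pass the test. Their changes ran from -0.0511 to that of the lymphocyte chemokine Xcl1, 1.39 ± 0.11. Cd2, Cd8a, Cd7 and Gzmb were detected on no array. Fibroblast markers summed to 223 to 228 in CONV and 267 to 285 in GF, but of 6 such markers 5 were detected on no array. The 1 fibroblast marker tested did not pass the test. The neutrophil markers S100a8 and S100a9 were detected on no array. In such bulk samples fewer cells of a type and less RNA per cell cannot be told apart. Replicates lay close together: the median SD of a gene over 3 arrays, with all 12 arrays normalized together, was 0.0809 in CONV and 0.0666 in GF of batch 1, against 0.155 and 0.169 in batch 2.

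GF and CONV colonocytes differed in a large share of the genes measured. Of 7337 genes, 1802 rose (24.6%) and 1782 fell (24.3%), or 48.8% in either direction, and 58.3% had GF and CONV arrays that did not overlap. Most of these changes were small. The median absolute change of all genes was 0.198, and their median change was 0.0083. At least 1.5-fold changes were called for 458 rises and 441 falls, at least 2-fold for 179 and 136, and at least 4-fold for 22 and 15. Without CONV1 1847 genes rose and 1916 fell. With all 12 arrays normalized and fitted together, 950 genes rose and 940 fell, and the cause of the lower counts was not tested. The size of a change in dim genes depended on the background. With a background inferred from all rows, an alternative chosen after the data were seen, the changes of 60 of the 146 genes named in the text were smaller by over 1.5 times. Folds of genes not detected in a whole group, mostly given as at least a value, rest on the background used here. The measured folds of all 11 such genes named were below that value with a background from all rows. Such a value is therefore not a limit under another background.

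The largest rises in GF joined a clock output gene, brush-border hydrolases, a trefoil peptide and a metallothionein. Dbp, a transcription factor driven by the circadian clock, had levels of 7.65, 7.34 and 7.30 in CONV and 11.78, 11.76 and 11.63 in GF, a change of 4.30 ± 0.10 (SE; limma adjusted p = 6.04e-08). Tff2, a trefoil peptide that stabilises mucus, had levels of 5.62, 5.39 and 5.56 in CONV and 9.45, 9.48 and 9.55 in GF and changed by 3.97 ± 0.072 (SE; limma adjusted p = 2.02e-08). Fosb, a subunit of the AP-1 transcription factor, had levels of 6.03, 6.36 and 6.18 in CONV and 10.07, 9.93 and 10.12 in GF and changed by 3.85 ± 0.093 (SE; limma adjusted p = 6.85e-08). The GF arrays lay above the CONV arrays without overlap in all 3 genes. Anpep, a peptidase of the brush border, had levels of 4.93, 5.13 and 4.96 in CONV and 8.76, 8.94 and 8.80 in GF and changed by 3.82 ± 0.077 (SE; limma adjusted p = 3.7e-08). Mt2, a metallothionein that binds zinc and copper, had levels of 7.15, 7.28 and 7.22 in CONV and 10.91, 10.91 and 10.80 in GF and changed by 3.66 ± 0.062 (SE; limma adjusted p = 2.02e-08). Naaladl1, a further brush-border peptidase, rose by 3.03 ± 0.054, and Treh, which splits the sugar trehalose, by 2.89 ± 0.10. The alpha-defensin Defa29 missed detection in all of CONV, with a GF level at least 5.1-fold higher, and the serine protease Prss23 was at least 4.36-fold higher in GF. Nupr1, a stress-induced nuclear protein, was already bright in CONV and rose by 2.26 ± 0.063.

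The largest fall was that of a phospholipase. Rbm3 and the clock gene Arntl, given elsewhere, a gasdermin row, interferon targets and mucosal defence genes were among those that followed. Pla2g4c, a cytosolic phospholipase A2, had levels of 10.16, 9.98 and 10.06 in CONV and 5.07, 5.12 and 5.01 in GF. It missed detection in all of GF and was at least 32.1-fold lower in GF (limma adjusted p = 5.91e-09). With a background from all rows the measured fold was 7.57. The gasdermin row Gsdmcl-ps, annotated as a pseudogene of that family, had levels of 9.10, 9.12 and 9.12 in CONV and 5.89, 5.66 and 5.68 in GF and changed by -3.37 ± 0.073 (SE; limma adjusted p = 4.96e-08), and related gasdermin copies could share its probes. Duoxa2, the maturation factor of the hydrogen peroxide-making oxidase Duox2, had levels of 10.79, 11.15 and 11.04 in CONV and 8.09, 8.02 and 8.09 in GF and changed by -2.92 ± 0.092 (SE; limma adjusted p = 3.14e-07). In each of these genes every GF array lay below every CONV array. Ly6a, a surface protein induced by interferons, fell by 2.38 ± 0.056 on the log2 scale from a high level. Ctse, an aspartic protease, fell by 2.31 ± 0.079 and Reg3g, a lectin that kills Gram-positive bacteria, fell by 2.12 ± 0.10.

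**Figure D2:**
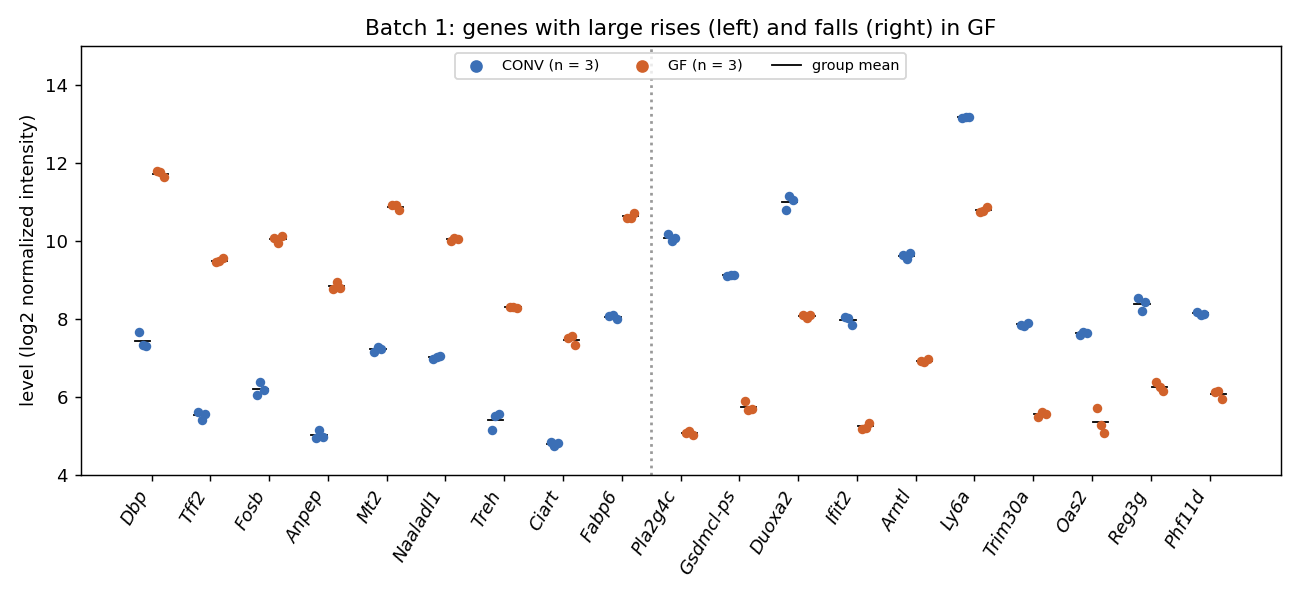
Level (log2 normalized intensity) of genes with large rises (left) and large falls (right), one point per array of batch 1, CONV in blue and GF in orange, with the group mean as a black line (n = 3 each). The groups do not overlap for any of these genes, and Dbp and Pla2g4c show the widest gaps.

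Most circadian clock genes tested rose in GF, while the activators Arntl and Npas2 fell. In the clock, the activators Arntl (Bmal1), Clock and Npas2 bind E-boxes and drive Per, Cry, Ciart and the output factors Dbp and Tef, whose products or targets feed back. Of 11 members tested, 8 rose, 2 fell and 1 did not pass the test, against 24.6% rises and 24.3% falls over all genes tested. The median change was 0.96. The median was 0.46 with a background from all rows, 0.31 over the 7 members that passed a stricter detection filter and 0.19 over all 16 members in the table. Tef, a sister of Dbp, had levels of 8.11, 7.77 and 7.74 in CONV and 10.77, 10.77 and 10.74 in GF and changed by 2.89 ± 0.10 (SE; limma adjusted p = 3.81e-07). Ciart, a repressor of the activators, had levels of 4.84, 4.74 and 4.81 in CONV and 7.51, 7.55 and 7.34 in GF and missed detection in all of CONV, with a GF level at least 6.17-fold higher. Per1, a core repressor, rose from 5.24, 5.34 and 5.56 to 7.45, 7.32 and 7.70, a change of 2.11 ± 0.11 (SE; limma adjusted p = 3.57e-06). Arntl had levels of 9.64, 9.52 and 9.70 in CONV and 6.91, 6.89 and 6.96 in GF and changed by -2.70 ± 0.063 (SE; limma adjusted p = 6.12e-08), opposite in sign to Dbp, Tef and Per1. Npas2 fell by 1.27 ± 0.061. Every GF array lay outside the range of the CONV arrays in these 5 genes.

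The clock genes also differed between batch 1 and batch 2. In the fit over 12 arrays, 8 of the 11 members had a GF change that differed between batches, against 9.99% of all genes tested. The median change of the list was 0.96 in batch 1 and 0.42 in batch 2, whose values here and below come from all 12 arrays normalized together. The change of Dbp was 4.45 in batch 1 and 0.42 in batch 2, a difference of 4.03 ± 0.26 (SE; adjusted p = 8.59e-06). For Arntl the changes were -2.74 and 0.43, a difference of -3.16 ± 0.24 (SE; adjusted p = 2.07e-05), so its sign turned. Time of day at collection is not given in the labels, and its part in these values was not tested.

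The E-box is the hexamer through which Arntl and its partners act. It was searched in RefSeq promoters (build GRCm38.p6, 250 bases before to 50 after the start) because most clock genes tested rose or fell. The letters searched were CACGTG, which reads the same on both strands. They were present in the windows of 3 of 9 clock genes with a window and of 11.4% of 5657 tested genes with one. The windows of the 3 genes, all of which rose, are printed 5′ to 3′ with the E-box in capitals: Ciart (chr3:95882179-95882478, minus strand), Per1 (chr11:69098699-69098998, plus strand) and Tef (chr15:81802423-81802722, plus strand).
Ciart: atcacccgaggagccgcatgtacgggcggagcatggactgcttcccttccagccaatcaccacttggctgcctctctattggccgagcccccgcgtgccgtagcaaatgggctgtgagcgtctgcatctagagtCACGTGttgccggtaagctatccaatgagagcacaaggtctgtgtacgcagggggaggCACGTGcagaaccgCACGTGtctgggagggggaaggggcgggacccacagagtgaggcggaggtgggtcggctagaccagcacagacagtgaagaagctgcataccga
Per1: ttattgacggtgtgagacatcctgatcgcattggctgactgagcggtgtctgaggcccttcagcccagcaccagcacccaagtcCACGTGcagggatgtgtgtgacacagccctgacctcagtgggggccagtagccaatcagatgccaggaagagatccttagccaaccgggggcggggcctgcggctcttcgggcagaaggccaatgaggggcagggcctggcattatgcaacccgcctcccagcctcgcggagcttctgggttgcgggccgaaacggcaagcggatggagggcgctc
Tef: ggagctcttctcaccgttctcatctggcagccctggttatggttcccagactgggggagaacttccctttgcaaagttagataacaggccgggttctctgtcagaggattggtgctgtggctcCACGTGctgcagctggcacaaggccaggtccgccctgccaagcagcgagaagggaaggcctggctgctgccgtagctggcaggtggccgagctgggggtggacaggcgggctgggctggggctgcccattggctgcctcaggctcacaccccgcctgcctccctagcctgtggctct
Ciart holds 3 matches in the window and Per1 and Tef 1 each. Dbp and Arntl were not among the genes with a match. Per1 and Tef had 2 windows each, and the one with the most matches is printed. A gene counted where any of its windows held a match. The search covered only these windows, which not every clock gene had.

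Immediate-early genes were mostly higher in GF. These genes encode transcription factors and feedback proteins that cells switch on within minutes of a growth or stress signal, without new protein synthesis. Of 21 members tested, 17 rose, 1 fell and 3 did not pass the test, against 24.6% rises and 24.3% falls over all genes tested. The median change was 0.56, or 0.23 with a background from all rows. After Fosb the largest rise was in Egr1, a zinc-finger factor, with levels of 10.71, 10.87 and 10.70 in CONV and 12.72, 12.86 and 12.70 in GF and a change of 2.00 ± 0.072 (SE; limma adjusted p = 4.81e-07). Ier2 rose by 1.77 ± 0.078 and Jun, the partner of Fos proteins in AP-1, by 1.43 ± 0.065. Klf4, a factor of differentiated epithelium, was the only member with a called fall and changed by -0.23 ± 0.057. In batch 2 the median of the list was -0.042, and 11 of 21 members differed between batches, against 9.99% of all genes tested. Egr1 changed by 2.04 in batch 1 and -0.019 in batch 2, a difference of 2.06 ± 0.27 (SE; adjusted p = 0.00106). Jun changed by 1.49 and -0.75, a difference of 2.24 ± 0.27 (SE; adjusted p = 0.000715).

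Glucocorticoid-regulated genes were mostly higher in GF, and metal-handling genes changed in both directions. Of 15 glucocorticoid-regulated members, 10 rose and 2 fell, with a median of 0.41, and this list shares Per1 and the metallothioneins with others. The cell-cycle inhibitor Cdkn1c rose by 1.12 ± 0.064. Nr3c1, the glucocorticoid receptor, missed detection in all of GF and was at least 1.43-fold lower in GF. Of 16 metal-handling genes, 9 rose and 5 fell, against 24.6% and 24.3% of all genes tested (median 0.30, or 0.14 with a background from all rows). Mt1, the companion of Mt2, rose by 1.38 ± 0.056 and the transferrin receptor Tfrc by 0.94 ± 0.10. The zinc importer Slc39a4 fell by 1.21 ± 0.074.

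Interferon-stimulated genes were lower in GF almost throughout. Interferons signal through the transcription factors Stat2 and Irf9 to genes that detect, tag or destroy viral RNA and intracellular microbes. Of 21 members tested, 0 rose, 19 fell and 2 did not pass the test, against 24.6% rises and 24.3% falls over all genes tested. The median change was -1.03, or -0.53 with a background from all rows. Among the effectors, Ifit2, which blocks translation of foreign RNA, had levels of 8.05, 8.03 and 7.84 in CONV and 5.17, 5.21 and 5.34 in GF and changed by -2.73 ± 0.076 (SE; limma adjusted p = 1.35e-07). Trim30a had levels of 7.85, 7.82 and 7.90 in CONV and 5.48, 5.60 and 5.55 in GF and changed by -2.31 ± 0.057 (SE; limma adjusted p = 7.52e-08). The groups did not overlap in either gene. The oligoadenylate synthetases Oas2 and Oasl2, of which Oas2 makes the signal for RNA decay, changed by -2.28 ± 0.14 and -2.03 ± 0.076. Dhx58, a regulator of the RNA sensors, fell by 1.42 ± 0.053, and Phf11d, a gene outside the list, fell by 2.07 ± 0.069. The medians of the batches were close, with -1.03 in batch 1 and -1.04 in batch 2. Of 21 members 3 differed between batches, against 9.99% of all genes tested.

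The interferon-stimulated response element was searched in the same promoter windows because most interferon-stimulated genes tested fell. The letters were GAAANNGAAA, read on both strands. They occurred in 9 of 15 interferon genes with a window (60%) and in 3.64% of the 5657 tested genes with one. The windows of 4 of the 9 are shown, with the matches in capitals and TTTCNNTTTC marking a match on the opposite strand: Bst2, which tethers budding virus (chr8:71537423-71537722, minus strand), Rsad2, an antiviral radical-SAM enzyme (chr12:26456403-26456702, minus strand), Stat2, a signal transducer of interferon itself (chr10:128270248-128270547, plus strand), and Trim30a (chr7:104465144-104465443, minus strand).
Bst2: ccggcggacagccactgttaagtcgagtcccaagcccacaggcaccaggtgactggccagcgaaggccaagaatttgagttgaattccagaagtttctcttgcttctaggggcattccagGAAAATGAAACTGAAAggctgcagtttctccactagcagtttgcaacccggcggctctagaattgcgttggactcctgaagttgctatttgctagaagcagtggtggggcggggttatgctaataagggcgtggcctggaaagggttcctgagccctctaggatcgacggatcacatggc
Rsad2: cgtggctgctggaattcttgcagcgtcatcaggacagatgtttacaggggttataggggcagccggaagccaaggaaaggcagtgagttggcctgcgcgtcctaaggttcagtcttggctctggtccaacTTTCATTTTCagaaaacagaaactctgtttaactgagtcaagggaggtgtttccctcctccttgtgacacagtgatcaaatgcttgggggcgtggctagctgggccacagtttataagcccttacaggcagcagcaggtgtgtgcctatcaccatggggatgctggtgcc
Stat2: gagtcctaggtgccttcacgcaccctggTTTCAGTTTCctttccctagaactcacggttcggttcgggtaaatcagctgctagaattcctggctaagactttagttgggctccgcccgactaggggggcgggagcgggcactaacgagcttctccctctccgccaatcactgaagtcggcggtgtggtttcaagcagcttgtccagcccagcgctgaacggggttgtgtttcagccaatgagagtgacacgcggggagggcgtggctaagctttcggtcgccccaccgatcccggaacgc
Trim30a: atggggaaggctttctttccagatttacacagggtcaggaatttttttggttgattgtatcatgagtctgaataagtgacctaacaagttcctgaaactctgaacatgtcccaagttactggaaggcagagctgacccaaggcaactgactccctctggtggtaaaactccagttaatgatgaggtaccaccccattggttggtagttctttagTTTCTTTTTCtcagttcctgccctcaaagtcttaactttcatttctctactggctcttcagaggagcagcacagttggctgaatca
Bst2 holds 2 overlapping matches, and Trim30a had 2 windows, of which the one with the most matches is printed. These 4 genes were chosen after their values were seen: Bst2 changed by -1.58 ± 0.065 (SE; limma adjusted p = 8.39e-07), Rsad2 by -1.65 ± 0.064 (SE; limma adjusted p = 6.58e-07) and Stat2 by -0.94 ± 0.10 (SE; limma adjusted p = 0.000116). A match of letters is a description of the window.

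Antigen-presenting molecules of class II were lower in GF. MHC class II molecules show peptides of ingested protein to CD4+ T cells, and epithelial cells make them under interferon-gamma through the coactivator Ciita. Of 9 members tested, 0 rose, 8 fell and 1 did not pass the test, against 24.6% rises and 24.3% falls over all genes tested. The median change was -1.42. These genes were dim, and the median was -0.84 with normexp at an offset of 50 and -0.26 with a background from all rows. Cd74, H2-DMb1 and Ciita were detected on every CONV array and no GF array, so they passed the filter through CONV alone. The median was -1.03 over the 3 members that passed a stricter detection filter. Cd74, the invariant chain that guards the peptide groove, had levels of 8.51, 8.67 and 8.59 in CONV and 6.70, 6.57 and 6.53 in GF. It was not detected on the GF arrays and was 3.98-fold lower in GF (limma adjusted p = 4.23e-07), or 2.04-fold with a background from all rows. The peptide exchanger subunits H2-DMb1 and H2-DMb2 had levels of 6.47, 6.41 and 6.33 in CONV and 4.82, 5.03 and 4.96 in GF and of 6.67, 6.92 and 6.94 in CONV and 5.25, 5.14 and 5.02 in GF. The GF arrays lay below the CONV arrays in all 3 genes. H2-DMb1 was at least 2.75-fold lower in GF, and H2-DMb2 fell by 1.71 ± 0.093. The beta chain H2-Ab1 fell by 1.49 ± 0.083. The calls of Cd74, H2-Ab1, H2-DMb1 and H2-DMb2 were lost in the fit over all 12 arrays. Their batch 1 changes there were -1.96, -1.45, -1.185 and -1.45. In batch 2 the median was -1.26, but it was -0.096 without CONV4, the array of batch 2 on which Cd74, H2-Ab1 and H2-DMb2 were highest. Cd74 had levels of 12.60, 9.24 and 7.88 on CONV4 to CONV6 and of 7.95, 9.70 and 7.75 on GF4 to GF6, and its batch 2 change went from -1.44 to -0.096 without CONV4. Macrophage and dendritic cell markers, which belong to cells that also make class II, summed to 788 to 886 in CONV and 673 to 691 in GF, and their part in the class II values was not tested. Of the 3 markers tested, Cd14 fell by 0.97 ± 0.067, while Cd68 and C1qa rose by 1.75 ± 0.12 and 0.38 ± 0.10, the call of C1qa being lost without any 1 of CONV2, CONV3, GF1 and GF2.

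Class I genes had a median closer to 0. Class I molecules show peptides of the cell's own proteins to CD8+ T cells, and the peptides are cut by the immunoproteasome and pumped into the endoplasmic reticulum by the Tap transporter. Of 10 members, 6 fell, none rose and 4 did not pass (median -0.26), against 24.3% falls and 24.6% rises over all genes tested. Tap1 changed by -1.33 ± 0.13 (SE; limma adjusted p = 9.3e-05) and the immunoproteasome subunit Psmb9 by -0.89 ± 0.062 (SE; limma adjusted p = 1.35e-05). The heavy chain H2-D1 fell by 0.42 ± 0.09 from a high level.

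Mucosal defence genes split. Of 21 members tested, 7 rose, 10 fell and 4 did not pass the test, against 24.6% rises and 24.3% falls over all genes tested. The median change was -0.18. The oxidase factor Duoxa2, the lectin Reg3g and the goblet protein Retnlb, which acts against Gram-negative bacteria, fell. Retnlb had a high signal, with levels of 13.24, 13.26 and 13.28 in CONV and 11.41, 11.30 and 11.22 in GF and a change of -1.95 ± 0.064 (SE; limma adjusted p = 3.47e-07). Nfkbiz, a nuclear regulator of NF-kappaB targets, fell by 1.5 ± 0.074. On the other side, the acute-phase proteins Saa1 and Saa2 were higher in GF. Saa1 had levels of 11.91, 12.01 and 12.00 in CONV and 13.58, 13.61 and 13.72 in GF and changed by 1.67 ± 0.063 (SE; limma adjusted p = 5.82e-07), and Saa2 rose by 1.91 ± 0.089. Of the 3 Paneth cell markers tested, the lysozyme Lyz1 rose by 1.71 ± 0.063 and the defensin Defa5 by 1.26 ± 0.065, both from a dim level, while the lectin Itln1 fell by 1.37 ± 0.087. Their sum was 597 to 692 in CONV and 397 to 451 in GF. Saa1 and Saa2 are near-identical copies, and probes could be shared between them.

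Genes of cell division were lower in GF. New colonocytes come from dividing crypt cells, which copy their DNA with the Mcm helicase and DNA polymerases and then separate chromosomes under the Aurora and Polo kinases. Of 15 replication genes, 14 fell and none rose, with a median of -0.62. Of 13 mitosis genes all 13 fell, with a median of -0.86. Among all genes tested, 24.3% fell and 24.6% rose. Ccnb1, the cyclin of mitotic entry, had levels of 9.65, 9.57 and 9.60 in CONV and 8.29, 8.21 and 8.23 in GF and changed by -1.36 ± 0.054 (SE; limma adjusted p = 7.62e-07). Aurka, a spindle kinase, had levels of 9.71, 9.72 and 9.72 in CONV and 8.53, 8.47 and 8.61 in GF and changed by -1.18 ± 0.057 (SE; limma adjusted p = 2.01e-06). Both genes lay lower on every GF array. Plk1 fell by 1.13 ± 0.055 and the kinetochore protein Ndc80 fell by 1.25 ± 0.075. On the replication side, the DNA ligase Lig1 changed by -0.89 ± 0.059 (SE; limma adjusted p = 1.03e-05), the thymidine kinase Tk1 by -0.89 ± 0.069 (SE; limma adjusted p = 2.28e-05) and the polymerase subunit Pole by -0.90 ± 0.087 (SE; limma adjusted p = 8.08e-05). Of 4 stem and transit markers tested, the stem cell receptor Lgr5 rose by 0.94 ± 0.14, Top2a, a topoisomerase of dividing cells, fell by 0.85 ± 0.057 and the others did not pass the test, and the list summed to 689 to 763 in CONV and 620 to 698 in GF. The medians in batch 2 were -0.54 for replication and -0.49 for mitosis. Of 13 mitosis genes 5 had a change that differed between batches, and of 15 replication genes none did, against 9.99% of all genes tested. Ccnb1 changed by -1.42 in batch 1 and -0.50 in batch 2, a difference of -0.93 ± 0.17 (SE; adjusted p = 0.00551).

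Hydrolases of the brush border were higher in GF. These enzymes sit on the microvilli and finish the digestion of peptides and sugars, and most are known as products of the small intestine. Of 11 members tested, 10 rose, 0 fell and 1 did not pass the test, against 24.6% rises and 24.3% falls over all genes tested. The median change was 1.57, or 0.62 with a background from all rows. Naaladl1 had levels of 6.96, 7.03 and 7.04 in CONV and 9.99, 10.07 and 10.04 in GF. Treh had levels of 5.14, 5.50 and 5.55 in CONV and 8.29, 8.30 and 8.28 in GF. In both genes the GF arrays lay above the CONV arrays, and Anpep was detected on 1 CONV array. Sis, sucrase-isomaltase, missed detection in all of CONV, with a GF level at least 2.48-fold higher. Batch 2 had a median of 1.08, and Anpep changed by 3.52 in batch 1 and 3.52 in batch 2. Small-intestinal enterocyte markers summed to 792 to 1288 in CONV and 2345 to 2539 in GF, while Apoa4, Fabp2 and Slc10a2 were detected on no array. Most of the GF sum came from Fabp6, with mean levels of 8.05 in CONV and 10.63 in GF. The CONV sum of 1288 was that of CONV1, where Apoc3 had a level of 8.85, against 4.72 and 4.61 on CONV2 and CONV3. The part of these markers in the brush-border values was not tested.

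Transporters of nutrients and bile acids were mostly higher in GF, while of all genes tested 24.6% rose and 24.3% fell. Of 8 amino acid and peptide transporters, 6 rose and 1 fell (median 0.61, or 0.12 with a background from all rows). Slc7a9, the light chain of the cystine carrier, had levels of 7.39, 7.36 and 7.37 in CONV and 9.43, 9.36 and 9.35 in GF and changed by 2.01 ± 0.053 (SE; limma adjusted p = 9.54e-08). Slc1a1, a glutamate transporter, was the one that fell, with a change of -1.71 ± 0.068. Of 8 sugar uptake genes, 5 rose and none fell, among them the sodium-glucose carrier Slc5a1 with 0.65 ± 0.051. Of 10 bile acid genes, 8 rose and 1 fell (median 0.43). Fabp6, the ileal bile acid-binding protein, had levels of 8.07, 8.10 and 7.99 in CONV and 10.57, 10.59 and 10.72 in GF and changed by 2.57 ± 0.064 (SE; limma adjusted p = 7.52e-08). The exporter subunits Slc51a and Slc51b rose by 0.98 ± 0.068 and 0.69 ± 0.056. For Fabp6 the batches differed by 1.59 ± 0.46 (SE; adjusted p = 0.0494).

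**Figure D3:**
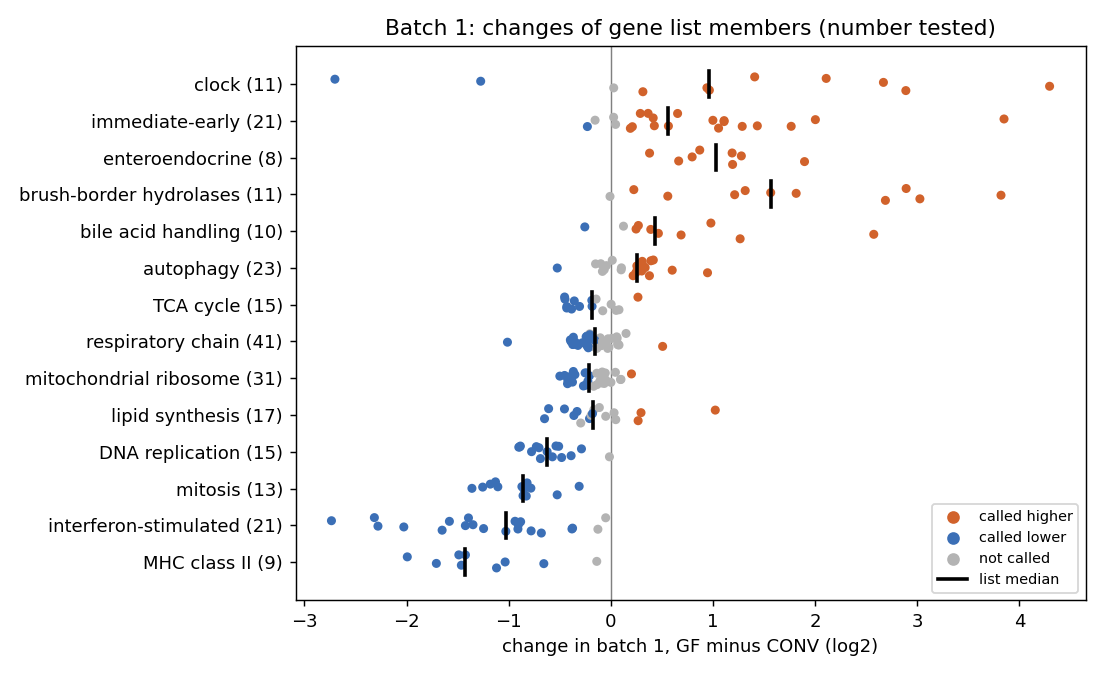
Change in batch 1 (GF minus CONV, log2) of every tested member of 14 gene lists, one point per gene, orange where called higher, blue where called lower and grey where not called, with the list median as a black bar. Clock, immediate-early, enteroendocrine, brush-border and bile acid genes lie mostly right of 0, and replication, mitosis, interferon and class II genes mostly left.

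The enteroendocrine genes tested were all higher in GF. Enteroendocrine cells are rare epithelial cells that release peptide hormones and serotonin. All 8 members tested rose, against 24.6% of all genes tested, with a median of 1.03, or 0.53 with a background from all rows. The median was 0.66 over all 15 members in the table, of which the others did not pass the detection filter. The hormone gene Pyy rose by 0.66 ± 0.059, and its call was lost in the fit with batch 2. Cck, which triggers gallbladder contraction, had levels of 5.38, 5.53 and 5.28 in CONV and 7.31, 7.32 and 7.25 in GF and changed by 1.90 ± 0.073 (SE; limma adjusted p = 6.16e-07). Sst, the inhibitory hormone somatostatin, had levels of 7.39, 7.53 and 7.66 in CONV and 8.80, 8.67 and 8.69 in GF and changed by 1.19 ± 0.079 (SE; limma adjusted p = 1.03e-05). Chga, a protein of hormone granules, rose by 0.87 ± 0.061 and Tph1, the enzyme of serotonin synthesis, by 0.80 ± 0.061. The neuropeptide gene Calcb, a gene outside the list, missed detection in all of CONV and so passed the filter through GF alone. It was 3.12-fold higher in GF, or 1.16-fold with a background from all rows. Both groups were separate in each of the other genes named here. The batch 2 median was 0.17, and 4 of 8 members differed between batches, against 9.99% of all genes tested. Among them was Chga with 0.85 and -0.45, a difference of 1.30 ± 0.25 (SE; adjusted p = 0.00757).

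Goblet cell genes did not share a direction. Of 13 members tested, 5 rose, 4 fell and 4 did not pass the test, against 24.6% rises and 24.3% falls over all genes tested. The median change was -0.0032, and it turned to 0.049 with 75th percentile scaling. Tff3, the main trefoil peptide of the colon, rose from 12.20, 12.22 and 12.20 to 13.23, 13.29 and 13.28, a change of 1.06 ± 0.052 (SE; limma adjusted p = 2.01e-06). Zg16, a lectin of mucus, rose by 0.75 ± 0.062 and Spdef, a transcription factor of goblet cells, by 1.43 ± 0.058. Clca1, a mucus metalloprotease, fell by 0.81 ± 0.058. Gastric pit and gland markers other than Tff2 were detected on no array (Gkn1, Gkn2, Muc5ac and Pgc) or on 2 (Muc6). Tff2 changed by 3.84 in batch 1 and 0.27 in batch 2, a difference of 3.57 ± 0.46 (SE; adjusted p = 0.00104). Spdef changed by 1.5 and -0.002, a difference of 1.51 ± 0.17 (SE; adjusted p = 0.000548).

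Mitochondrial genes fell more often than they rose, by small amounts. The TCA cycle and the respiratory chain turn butyrate and other fuels into ATP. Of 15 TCA cycle genes, 9 fell and 1 rose, against 24.3% and 24.6% of all genes tested (median -0.19), and of 41 respiratory chain and ATP synthase genes, 19 fell and 1 rose (median -0.16). Of 31 mitochondrial ribosomal proteins, 16 fell and 1 rose (median -0.21). The fumarase Fh1 had levels of 10.58, 10.64 and 10.66 in CONV and 10.19, 10.10 and 10.25 in GF and changed by -0.45 ± 0.061 (SE; limma adjusted p = 0.000533). The dehydrogenase subunits Sdhb and Sdhd changed by -0.31 ± 0.059 (SE; limma adjusted p = 0.00336) and -0.38 ± 0.057 (SE; limma adjusted p = 0.000819), and the ATP synthase subunit Atp5c1 by -0.39 ± 0.053 (SE; limma adjusted p = 0.000539). The complex I subunit Ndufc2 had the largest fall of the chain, with a change of -1.01 ± 0.10, while Ndufa4 rose by 0.51 ± 0.067. Cycs, cytochrome c, fell by 0.37 ± 0.053. The calls of Sdhd and of Mdh1 were lost in the fit over 12 arrays. In batch 2 the medians were 0.015 for the TCA cycle and -0.0093 for the respiratory chain.

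Fatty acid oxidation did not move as one. Of 23 genes, 8 fell and 4 rose (median -0.057), against 24.3% and 24.6% of all genes tested. The long-chain dehydrogenase Acadl changed by -1.10 ± 0.12 (SE; limma adjusted p = 0.000198), and Acsm3, which activates medium-chain acids, by -1.04 ± 0.051 (SE; limma adjusted p = 2.01e-06). Acads, the short-chain dehydrogenase of butyrate, fell by 0.46 ± 0.056. Acsl1, which activates long-chain acids, rose by 0.65 ± 0.08. Of 9 butyrate and ketone genes, 2 rose and 2 fell. Oxct1, an enzyme of ketone use, rose by 0.55 ± 0.057.

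Glycolysis and the kinases at its exit were mixed. Of 17 members, 5 fell and 2 rose, against 24.3% and 24.6% of all genes tested, with a median of -0.036. The pyruvate dehydrogenase kinases went in different directions: Pdk3 changed by -0.80 ± 0.063 (SE; limma adjusted p = 2.63e-05), Pdk2 by 0.79 ± 0.09 (SE; limma adjusted p = 0.000203) and Pdk1 by 0.32 ± 0.062 (SE; limma adjusted p = 0.00372). These kinases shut the gate from pyruvate into the TCA cycle. The lactate dehydrogenase subunit Ldha fell by 0.29 ± 0.055. Of 12 hypoxia-inducible targets, 6 rose and 2 fell, and the call of Pdk1 was lost in the fit over 12 arrays. Ndrg1 changed by 1.18 ± 0.055 and the carbonic anhydrase Car9 by -0.93 ± 0.065.

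Most autophagy genes rose, by small amounts. Autophagy degrades cell contents in lysosomes when fuel is short. Of 23 members, 14 rose, against 24.6% of all genes tested, and 1 fell (median 0.26, or 0.14 with a background from all rows). Atg16l2 rose by 0.95 ± 0.055 (SE; limma adjusted p = 5.05e-06), the membrane-conjugated Gabarapl1 by 0.60 ± 0.089 (SE; limma adjusted p = 0.00079) and Atg16l1, part of the conjugating complex, by 0.39 ± 0.056 (SE; limma adjusted p = 0.000677). Lamp2, a lysosomal membrane protein, fell by 0.52 ± 0.072. Of 19 apoptosis and cell-cycle inhibitor genes, 5 rose and 8 fell, against 24.6% and 24.3% of all genes tested. The survival factor Bcl2 changed by 1.17 ± 0.056 (SE; limma adjusted p = 1.91e-06) and the killers Bik and Casp4 by -1.40 ± 0.11 (SE; limma adjusted p = 2.04e-05) and -0.95 ± 0.063 (SE; limma adjusted p = 1.04e-05).

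Lipid synthesis and detoxification were mixed, as were all genes tested, of which 24.6% rose and 24.3% fell. Of 17 lipid synthesis genes, 7 fell and 3 rose (median -0.18). Mvd, an enzyme of the mevalonate pathway, changed by -0.65 ± 0.079. Of 9 apolipoprotein and chylomicron genes, 3 rose and 1 fell over 6 arrays (median 0.19), with Apoa1 and Apoc3 as described for CONV1, and the median was 0.65 without CONV1, 0.057 without GF1 and 0.026 with a background from all rows. Apob, the core protein of chylomicrons, rose by 1.42 ± 0.10. Of 10 targets of the fatty acid receptors of the PPAR family, 3 rose and 2 fell, and Creb3l3, a membrane-bound factor of lipid metabolism, rose by 1.71 ± 0.089. Of 11 antioxidant genes, 2 rose and 3 fell, among them the peroxidase Gpx1, which fell by 0.36 ± 0.054. Of 23 detoxification genes, 8 rose and 5 fell. The retinaldehyde dehydrogenase Aldh1a1 changed by 1.21 ± 0.061 (SE; limma adjusted p = 2.38e-06) and the cytochrome Cyp3a13 by 1.16 ± 0.069 (SE; limma adjusted p = 5.88e-06). The glutathione transferase Gstt1 fell by 1.01 ± 0.058. Of 26 chaperone and endoplasmic reticulum genes, 9 rose and 6 fell, and 11 differed between batches, against 9.99% of all genes tested. Herpud1 and Ddit3, targets of the unfolded protein response, rose by 0.91 ± 0.065 and 0.90 ± 0.077, and the heat-shock protein Hspa1b by 1.39 ± 0.068. Hsp90b1, a folding chaperone, fell by 0.46 ± 0.071.

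Phospholipases other than Pla2g4c fell or did not pass the test, apart from a small rise of Plcg2 that was lost in several alternatives. Of 14 members, 6 fell and 1 rose, against 24.3% and 24.6% of all genes tested. The median was -0.17, which turned to 0.028 with a stricter detection filter. Plcd3 changed by -1.62 ± 0.082 (SE; limma adjusted p = 2.39e-06). The antibacterial secreted enzyme Pla2g2a missed detection in all of GF and was at least 2.96-fold lower in GF. C57BL/6 mice carry a disrupted copy of that gene, so its row speaks of transcript only. The call of Pla2g4f, a relative of Pla2g4c with a change of -1.08, was lost in the fit over 12 arrays. Of 21 ion and water transport genes, 8 rose and 6 fell, against 24.6% and 24.3% of all genes tested. The chloride-bicarbonate exchanger Slc26a6 changed by 1.43 ± 0.084 (SE; limma adjusted p = 5.39e-06) and the sodium channel subunit Scnn1b by 1.02 ± 0.075 (SE; limma adjusted p = 1.84e-05). The carbonic anhydrase Car2 fell by 0.72 ± 0.054.

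Structural and regulatory lists held calls in both directions, as did all genes tested, of which 24.6% rose and 24.3% fell. Of 16 junction genes, 5 rose and 2 fell, with Cdh17, an intestinal cadherin, at 0.43 ± 0.10. Of 12 keratin and actin genes, 4 rose and 4 fell, and Capg, which caps actin filaments, had levels of 10.02, 10.02 and 10.11 in CONV and 8.06, 8.02 and 8.14 in GF and a change of -1.98 ± 0.059 (SE; limma adjusted p = 2.06e-07). Of 20 Wnt, Notch and BMP genes, 7 rose and 4 fell, with the BMP targets Id1 and Id3 at -0.62 ± 0.068 and -0.78 ± 0.082. Of 18 nuclear receptors, 8 rose and 3 fell, and Nr1h3, the oxysterol receptor, rose by 1.07 ± 0.085. Of 17 chromatin regulators, 1 rose and 3 fell, with Dnmt1, which keeps DNA methylation through division, at -0.70 ± 0.052. Of 13 cytosolic ribosomal proteins, 2 rose and 1 fell.

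Batch 1 and batch 2 hold different samples, so their changes could be compared directly. A group by batch term was called for 733 genes (9.99%): 417 had a higher GF change in batch 1 and 316 a lower one. Of these, 598 were also called in batch 1 alone, 520 had opposite signs in the batches and 486 were larger in batch 1. Of the genes called in batch 1, 68.5% had the same sign in batch 2, against 61.2% of all tested. Among the 315 with at least a 2-fold change, 245 (77.8%) had the same sign. The count of 733 became 441, 421, 431, 405 and 432 without CONV2, CONV3, GF1, GF2 and GF3. Left out 1 at a time, the arrays of batch 2 gave batch 2 medians of 0.25 (without GF4) to 0.40 for clock genes, -0.19 (without GF4) to -0.034 for immediate-early genes, -0.18 (without GF5) to 0.39 (without GF4) for enteroendocrine genes and -1.28 to -0.86 for interferon genes. Batch 2 had the wider spread, and array processing, animals and collection cannot be told apart between batches.

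Some of these genes had opposite signs in the batches. Nupr1 rose in batch 1 (2.30) and had a change of -0.53 in batch 2, a difference of 2.83 ± 0.31 (SE; adjusted p = 0.000412). Clps, colipase, the cofactor of pancreatic lipase, changed by 1.27 and -1.19, a difference of 2.46 ± 0.18 (SE; adjusted p = 2.07e-05). Gja1, the gap junction protein connexin 43, changed by 1.98 and -0.47, a difference of 2.46 ± 0.36 (SE; adjusted p = 0.00201). Muc16, a membrane mucin, changed by -1.86 and 1.43, a difference of -3.29 ± 0.86 (SE; adjusted p = 0.0335). Nt5e, which makes adenosine at the cell surface, changed by -1.66 and 0.30, a difference of -1.96 ± 0.43 (SE; adjusted p = 0.0152). Slc30a10, a manganese exporter, had the same sign in both batches, with -0.32 in batch 1 and -2.94 in batch 2, a difference of 2.62 ± 0.32 (SE; adjusted p = 0.000792).

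**Figure D4:**
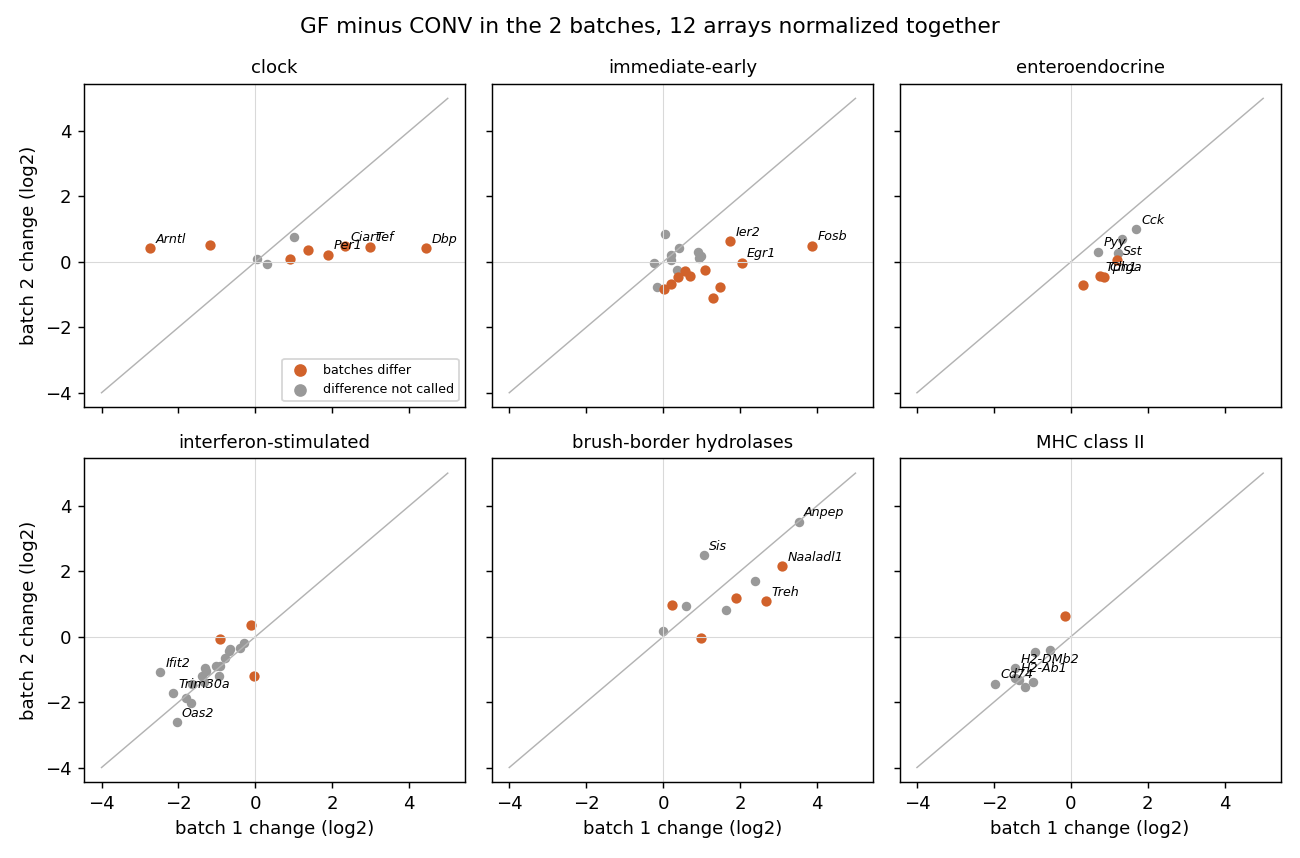
Change of each tested list member (GF minus CONV, log2) in batch 1 on the horizontal axis and in batch 2 on the vertical axis, with 12 arrays normalized together, orange where the batches differed and grey where the difference was not called, and the diagonal marking equal changes. Most interferon and class II genes lie near the diagonal, the latter through CONV4 of batch 2, without which the class II median was -0.096, while Dbp, Arntl, Fosb and Egr1 lie far from it.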

How the data were processed

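RNA of 3 GF and 3 CONV colonocyte preparations of batch 1 was measured on Illumina bead arrays, with 6 arrays of batch 2 used for the batch comparison. Per the labels' protocols, biotinylated cRNA was made from Trizol-extracted total RNA with the Ambion MessageAmp kit. The submitters' processing notes name limma, with no further detail on what was done before deposit. The deposited intensity table, named as not normalized, holds natural log values per gene row with a detection p-value per row and array. The authors' series matrix holds the same natural log values for 15132 shared row names. The way probes were joined into gene rows is unknown. The analysis had been planned for probe intensities, so values were first raised from the natural log.

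Detection p-values of 9971 rows lie on even steps, and those of 5183 rows lie between the steps. Only the former were used to infer the level and spread of the negative-control beads, since inclusion of the latter widens the inferred SD. Background was corrected with limma's normexp (limma 3.58.1, R 4.3.3, offset 16), followed by log2 and quantile normalization of the 6 arrays. Rows were kept where 3 or more of the 6 arrays had a detection p below 0.05, and the brightest row stood for a gene. Symbols were updated with the RefSeq table (GRCm38.p6): 11696 rows had a current symbol, 2532 an older one, 877 no match, 34 several genes and 15 a name altered by a spreadsheet, and unmatched rows kept their names. Genes were tested with lmFit and eBayes (two-sided), and p-values were adjusted by Benjamini-Hochberg over 7337 genes. The batch comparison was the group by batch term over 12 arrays normalized together. A gene not detected on any array of a group is given as a bound: the bright group's mean over the mean, per array, of the lowest detected signal or the gene's own signal, whichever is higher. Where the gene's own signal is the higher throughout, as for Cd74 and Calcb, the bound equals the measured fold, which is given as such. Precision is limited by the array number.

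Gene lists, markers and the rule for named genes (the largest rises and falls, the called members with the lowest adjusted p and the brightest uncalled members per list, the largest batch differences and the largest bounds) were chosen with earlier results of these data known. Some genes that the rule names are not reported here. Alternatives were other background corrections, normalizations, filters, spread estimates, the series matrix, a replicate block and leaving out each array. Fits were tested on simulated data. Summed marker signals are on the linear scale after normalization.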

Additional observations from a re-analysis of the deposited data

Results flagged for a closer look

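The GF minus CONV change differed between batch 1 and batch 2, by the group by batch term of the limma fit over 12 arrays (adjusted p below 0.05), for 58 of the 146 genes named in the text, against 9.99% of all genes tested. The naming rule takes in the largest batch differences, so the number of genes here follows in part from the choice. The values that follow are the batch 1 change minus the batch 2 change on the log2 scale, and the cause of these differences was not tested.

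Among clock genes the difference was -3.16 for Arntl, -1.70 for Npas2, 1.67 for Per1, 4.03 for Dbp, 2.52 for Tef and 1.84 for Ciart. Among immediate-early genes it was 3.37 for Fosb, 2.24 for Jun, 2.06 for Egr1 and 1.11 for Ier2. Among hormone and goblet cell genes it was 1.15 for Sst, 1.30 for Chga, 1.19 for Tph1, 3.57 for Tff2, 1.14 for Zg16 and 1.505 for Spdef. Among cell division genes it was -0.93 for Ccnb1, -0.69 for Aurka and -0.87 for Plk1.

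Among brush-border, bile acid, metal and glucocorticoid-regulated genes the difference was 0.95 for Naaladl1, 1.59 for Treh, 1.59 for Fabp6, 0.67 for Mt1, 1.61 for Mt2, 2.62 for Slc30a10, 0.82 for Cdkn1c and 0.94 for Scnn1b. Among genes of fuel use it was 0.47 for Ndufa4, -1.14 for Ndufc2, -0.62 for Atp5c1, -0.98 for Acsm3, -1 for Acadl, -0.49 for Ldha, -0.53 for Pdk3, 1.58 for Ndrg1 and -0.67 for Car9. Among autophagy, apoptosis, lipid, chaperone, ion transport and defence genes it was 0.82 for Gabarapl1, 1.03 for Bcl2, -0.92 for Casp4, 1.08 for Ddit3, 0.87 for Herpud1, 0.85 for Slc26a6, -0.88 for Car2 and 0.93 for Saa2. Of the remaining genes, the difference was 2.83 for Nupr1, 2.46 for Clps, 2.46 for Gja1, 2.30 for Creb3l3, 1.90 for Defa29, 1.60 for Cd68, 1.56 for Xcl1, 1.52 for Prss23, 1.17 for Cd3g and 0.93 for Defa5 on the higher side in batch 1, and -0.84 for Apob, -1.96 for Nt5e, -2.47 for Gsdmcl-ps and -3.29 for Muc16 on the lower side. Groups of 3 arrays were too small for a test of single outlying arrays, and the arrays that stood apart are given with the results above.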

How the results depend on the processing

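Over batch 1 the counts stayed within 1.5 times of 1802 rises and 1782 falls in every alternative run except one, the fit normalized with all 12 arrays, which gave 950 and 940 and changes both the normalization and the estimate of the spread, of which neither was tested alone. Leaving out each array gave 1491 to 1847 rises and 1461 to 1916 falls. With 75th percentile scaling 2078 genes rose and 1599 fell, a split of 56.5% rises against 50.3%. A background from all rows, chosen after seeing the data, gave 1640 and 1649, with 85 and 60 changes of at least 2-fold against 179 and 136. Without a filter 1942 of 15118 genes rose and 1954 fell. With the replicate number as a block, 1740 genes rose and 1698 fell. Arrays of equal number had deviations that correlated at 0.0431, -0.0129 and 0.0278, and arrays of unequal number at -0.0454 to 0.0397. With so few arrays these values cannot show whether the numbers pair the samples.

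The count of genes whose change differed between batches, 733, ranged from 405 to 961 when 1 array was left out. It moved by over 1.5 times without CONV2 (441), CONV3 (421), GF1 (431), GF2 (405) or GF3 (432). It was 573 with cyclic loess, 980 with array weights and 1023 with a background from all rows.

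Among the genes named in the text, 2398 gene and alternative pairs kept their direction and their side of the threshold, 29 lost the call, 1 gained it and 1 reversed: Apoc3, which ranged from -1.06 to 1.04 when 1 array was left out. Of the lost calls 13 came from the fit with all 12 arrays. Counts of list members called in a direction moved by over 1.5 times in 108 cases, of which 39 came from the same 12-array fit. The goblet list had a median of 0.049 with 75th percentile scaling and 0.030 with cyclic loess, and the phospholipase list one of 0.028 with the strict detection filter. Sizes moved more than calls: of the 146 named genes, 60 were smaller by over 1.5 times with a background from all rows, 33 with normexp at an offset of 50 and 16 without background correction, with H2-DMb1 at -0.18 and Anpep at 1.49 in the first of these. Signal over background limits the dim genes.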

Other observations

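Genes with bright rows that missed the detection limit were not among the genes tested above. Of 259 genes with a mean intensity above 200 but a detection p below 0.05 on fewer than 3 arrays, 256 had a detection p that lay between the steps of the other rows, and 150 were called when the filter was dropped (limma over 15118 genes). In that fit 3896 of all 15118 genes were called, and with the filter 48.8% of the genes tested above were called. Ckb, the brain-type creatine kinase, had levels of 10.10, 10.23 and 10.27 in CONV and 8.15, 8.13 and 8.22 in GF and a change of -2.03 ± 0.055 (SE; adjusted p = 2.26e-06). Nox1, the superoxide-making oxidase of the colon, had levels of 8.28, 8.19 and 8.14 in CONV and 6.22, 5.96 and 6.12 in GF and a change of -2.11 ± 0.074 (SE; adjusted p = 5.2e-06). The secreted phospholipase Pla2g3 had levels of 9.62, 9.65 and 9.65 in CONV and 7.39, 7.45 and 7.35 in GF and a change of -2.24 ± 0.041 (SE; adjusted p = 5.31e-07). GF arrays lay below CONV arrays in each of them.

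Other genes of this kind differed in both directions. Nts, the gut hormone neurotensin, had levels of 6.87, 7.18 and 7.25 in CONV and 9.16, 9.28 and 9.18 in GF and a change of 2.11 ± 0.10 (SE; adjusted p = 1.63e-05). The defensin-related row Defcr3 changed by 2.98 ± 0.13 (SE; adjusted p = 1.11e-05), and the claudin Cldn2, which forms a pore for cations between cells, by 0.59 ± 0.04 (SE; adjusted p = 7.85e-05). Slc5a8, a sodium-coupled carrier of short-chain fatty acids, fell by 0.89, and the mitotic kinase Cdk1 fell by 1.21. These genes were chosen after their values were seen.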
